A study of Mus musculus with 12 samples.

Results

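The genes described here are the chromatin modifiers and remodelers of the mouse genome, taken by symbol: the histone deacetylases (Hdac), sirtuins (Sirt), lysine demethylases (Kdm), lysine acetyltransferases (Kat), DNA methyltransferases (Dnmt), TET dioxygenases (Tet), SWI/SNF-related genes (Smarc) and chromodomain helicases (Chd) with a number in their name where the family has one, together with Ezh1, Ezh2, Eed, Suz12, Rest, Rcor1 and Rcor2. The rule used names alone and no measured value. It found 92 symbols, of which 81 are protein coding, and 70 of these were matched to probes, out of 17277 genes with a symbol and 25128 genes and unnamed targets in all. Chd2, Chd3, Chd5, Chd7, Chd8, Kat6a, Kdm3b, Kdm5a, Sirt4, Tet1 and Tet3 are not analysed here. Of the 70 genes, 68 were read by 3 probes each, while Kat2a and Kdm3a had 2 targets each, which were averaged.

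Total RNA from 3 immortalized mouse cell lines was hybridized to single-color NimbleGen arrays, with 1 array for each of 4 plates per line. AtT20 is a corticotroph line from a mouse pituitary tumor, BV2 a microglia-like line immortalized with an oncogene-carrying virus, and N18 a neuroblastoma line used as a model of neurons. All 12 plates were grown in the same medium with serum, with no treatment, and extracted separately at confluence, so the plates of a line are separate cultures of 1 line and not separate animals. For BV2 alone, the study adds that culture conditions were chosen to favor a resting state. Which plates shared a slide is not given in the sources used here, so slide and line cannot be told apart.

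Chromatin regulators work as writers, erasers, readers and movers. Acetyltransferases and methyltransferases add marks to histone tails, deacetylases, sirtuins and demethylases take them off, DNA methyltransferases and TET enzymes set and oxidize methylated cytosine, and the SWI/SNF, ISWI and CHD enzymes use ATP to slide or evict nucleosomes. Most of them act inside large complexes: Hdac1 and Hdac2 sit in the CoREST, NuRD and Sin3 corepressors, Rest brings the CoREST complex to neuronal genes in cells that are not neurons, and Polycomb repressive complex 2 (PRC2) methylates histone H3 at developmental genes. In the nervous system the subunits of the SWI/SNF complex are known to be exchanged as progenitors become neurons.

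A level is given as the log2 intensity of a gene, averaged over its probes, with the average of 10 seminal proteins on the same plate subtracted (these serve as genes without expression). A gene counted as above the threshold in a line when its mean over 4 plates exceeded 2 SD of the seminal proteins, a threshold of 0.74 ± 0.10 in N18, 0.56 ± 0.15 in BV2 and 0.37 ± 0.11 on the plates labelled AtT20 (mean ± SD over plates, n = 4). Levels of different genes come from different probes and are not set against each other. In these bulk cultures, fewer cells with a transcript and less transcript per cell cannot be told apart.

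The plates labelled AtT20 stood apart from the other two lines. Their median log2 intensities were 10.85 to 11.5, against 9.9 to 10.54 on the other plates, their interquartile ranges 0.38 to 0.78 against 1.28 to 2.21, and the correlation between plates of the line was 0.896 to 0.959 over genes, against 0.976 to 0.993 in BV2 and 0.982 to 0.993 in N18. Only 1 of 8 corticotroph genes was above the threshold there, with levels of 0.29 for Pomc, the hormone precursor that defines the cell type, 0.02 for Tbx19 and 0.14 for Pcsk1. The mean of 12 genes that all cells use was 2.20 to 3.11 on these plates, against 4.79 to 5.65 on the others, and Rps3 and Ywhaz were at 0.47 and 0.49. The markers of BV2 and N18 were in place, with 7 of 9 microglia genes above the threshold in BV2 (Csf1r at 4.70) and 9 of 10 neuroblastoma genes in N18. The lists also crossed lines. In BV2, 5 of 10 neuroblastoma, 2 of 7 fibroblast and 2 of 8 corticotroph genes were above the threshold. In N18, 2 of 9 microglia, 4 of 7 fibroblast (Thy1 at 2.60) and 4 of 8 corticotroph genes were. On the plates labelled AtT20, 6 of the 10 neuroblastoma genes were above the threshold as well (Nefl at 4.46, against -0.09 in N18, and Hand2 at 2.03), as were 4 of 7 fibroblast genes (Thy1 at 1.92 and Col1a1 at 1.69) and 1 of 9 microglia genes. The part of these properties in the comparisons with the plates labelled AtT20 was not tested, and N18 against BV2 is therefore given first and in most detail.

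N18 and BV2 cells contained mRNA for most of the chromatin genes. In N18, 61 of 70 (87.1%) were above the threshold, against 55.4% of all genes and targets. In BV2 there were 60 (85.7%), against 53.3%, and on the plates labelled AtT20 there were 43 (61.4%), against 35.0%. The median level of the 70 genes was 2.20 in N18, 1.31 in BV2 and 0.66 on the plates labelled AtT20, where the medians of all genes and targets were 0.93, 0.64 and 0.16. With olfactory receptor genes as the controls in place of the seminal proteins, the count in BV2 was 36. The share of all genes and targets with these controls is not given here.

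A core of 39 genes was above the threshold in the 3 lines. It held all 4 class I deacetylases, the ATPases Smarca2, Smarca4, Smarca1, Smarca5 and Chd4, the PRC2 genes Ezh1, Ezh2 and Eed, and Rest, Rcor2 and Dnmt1. Another 18 were above it in both BV2 and N18 but not on the plates labelled AtT20, among them Suz12, Rcor1, Smarcc1, Smarcc2, Smarce1, Kdm2a and Tet2. The genes above it in 1 line alone were Smarcd3 on the plates labelled AtT20, Kdm8 and Sirt5 in BV2, and Chd6 and Kdm1b in N18. Dnmt3b, Hdac9, Kdm4b, Kdm4d and Kdm5d were above the threshold in no line. At least 2 probes of a gene were above the threshold for 56 genes in N18, 53 in BV2 and 32 on the plates labelled AtT20. Hdac1 and Ezh1 had 1 probe above it on the plates labelled AtT20.

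**Figure D1:**
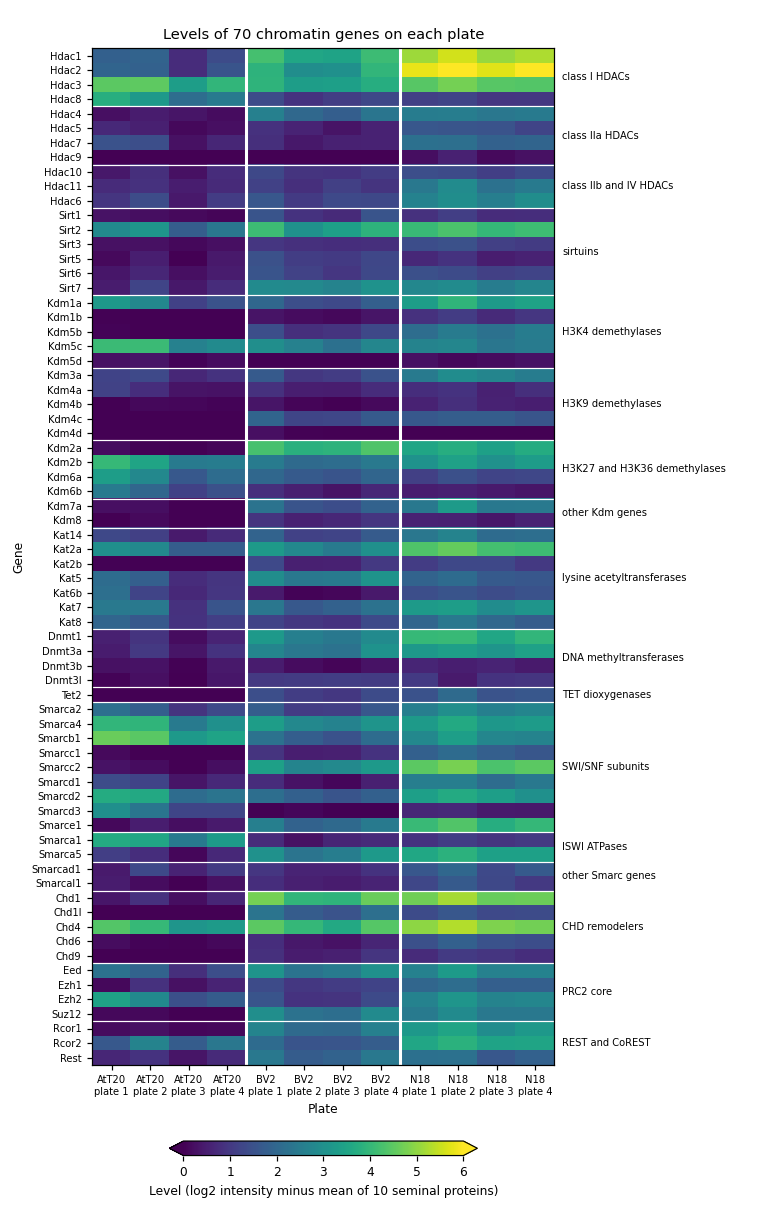
Level of each of the 70 genes (rows, grouped by role) on each of the 12 plates (columns), as log2 intensity minus the mean of the 10 seminal proteins; colours end at 0 and 6, and values beyond are drawn at the end colours. The N18 columns are the brightest for most rows, with a median level of 2.20, and the plates labelled AtT20 are the darkest, with a median of 0.66.

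The question of which chromatin genes differ between a neuron-like and a microglia-like line was put to N18 against BV2. After quantile normalization of the 12 arrays, limma called 25 of the 70 genes higher in N18, where 19.0% of all genes and targets were called, and 16 lower, where 21.9% were called (Benjamini-Hochberg adjusted p under 0.05 over 25128). This background includes genes and targets below the threshold in both lines. With the fit limited to the 15695 above it in N18 or BV2, 4570 of these were called higher and 4742 lower. The median difference of the 70 genes was 0.21 on the log2 scale, against -0.06 over all genes and targets. Differences here and below are those after quantile normalization unless another scaling is named. They therefore need not equal the gaps between the levels, which are relative to the seminal proteins. Hdac1 and Hdac2, the CoREST genes Kdm1a and Rcor2, Ezh2 and 6 of 9 SWI/SNF subunits were among the higher genes. Kat5, Kdm2a, Kdm6a, Chd1l and 4 of 6 sirtuins were among the lower ones.

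The higher calls held across the scalings, as did most such calls over all genes. All 25 were also called higher without normalization and relative to the seminal proteins, as were 4700 of the 4775 genes and targets called higher in all. The differences of the 25 were larger there, by 0.21 to 0.71 and by 0.24 to 0.74. Of the 29 genes not called after quantile normalization, 13 were called higher under both other scalings and 0 lower. Calls over all genes and targets moved the same way. Those higher in N18 rose from 4775 to 7714 without normalization and 9754 relative to the seminal proteins, and those lower fell from 5495 to 1905 and 3296. Of the 16 lower genes, Chd1l, Kat5 and Sirt5 were called under all 3 scalings (background 7.16%). The 4 N18 levels lay above the 4 BV2 levels for 43 of the 70 genes (background 38.0%), among them the 25 higher genes, and below them for 5 (12.7%). Every probe moved the same way in the 25 higher genes and in 14 of the 16 lower ones, against 92.8% and 88.9% of all genes and targets called in these directions. The split depended on the scaling. Without normalization, 38 were higher (background 30.7%) and 4 lower (7.58%), and relative to the seminal proteins 43 were higher (38.8%) and 5 lower (13.1%). The median of all genes and targets was itself 0.15 and 0.18 under these scalings, so they move most genes toward N18. A difference of at least 1 was reached by 5 higher and 2 lower genes, against 1378 and 1093 of all 25128 genes and targets.

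**Figure D2:**
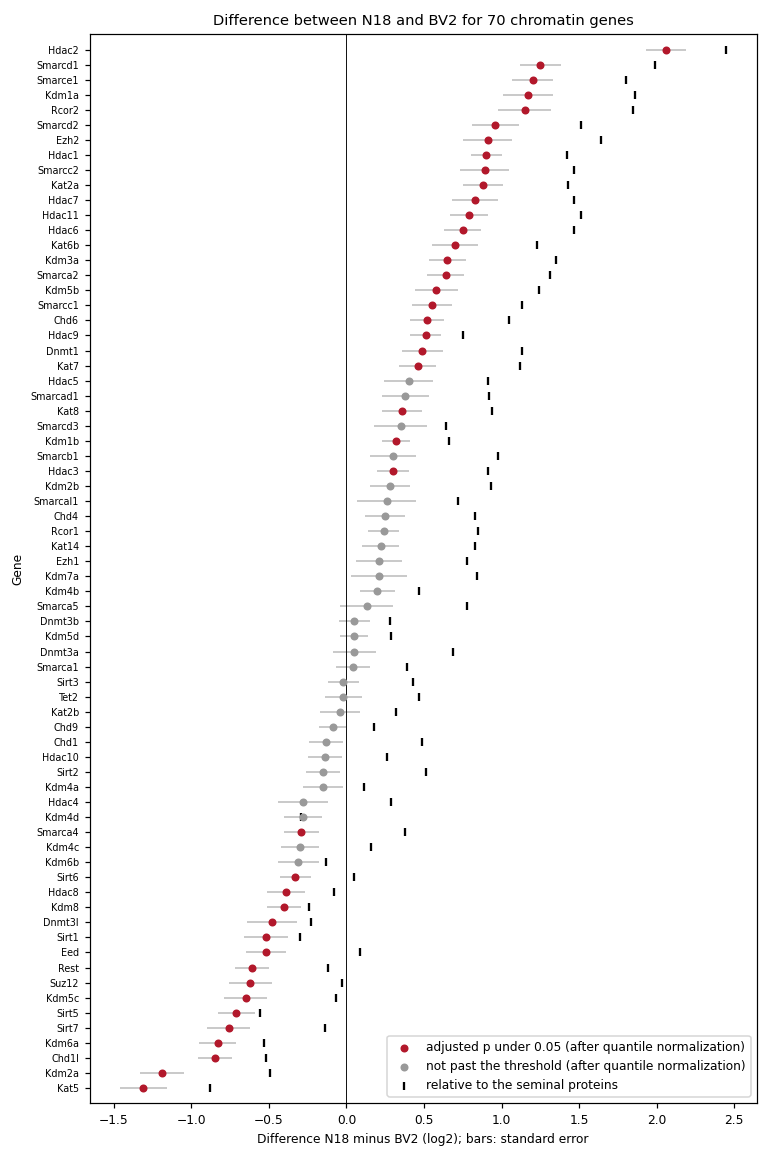
Difference N18 minus BV2 on the log2 scale for the 70 genes (x axis), with the standard error as a bar; red points have an adjusted p under 0.05 after quantile normalization, and black ticks give the difference relative to the seminal proteins. The points run from Kat5 at -1.31 to Hdac2 at 2.06, and the ticks lie to the right of nearly all points.

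The starts of the genes that differed under every scaling may be read from the genome. The 250 bases before a start listed by RefSeq are shown for Hdac2, Rcor2 and Smarcd1, which were higher in N18, and for Chd1l and 2 starts of Kat5, which were lower (sequences from RefSeq, build GRCm38.p6, 5′ to 3′ on the strand of the gene). Capitals mark the GC box, GGGCGG or CCGCCC on the other strand, the motif that Sp1-like factors bind.
Hdac2, chr10:36974294-36974543, plus strand: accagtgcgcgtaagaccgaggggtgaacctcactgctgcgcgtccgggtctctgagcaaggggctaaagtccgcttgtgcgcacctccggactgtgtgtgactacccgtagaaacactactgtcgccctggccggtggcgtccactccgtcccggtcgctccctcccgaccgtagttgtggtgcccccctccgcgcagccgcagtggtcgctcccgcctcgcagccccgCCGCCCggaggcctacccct
Rcor2, chr19:7267144-7267393, plus strand: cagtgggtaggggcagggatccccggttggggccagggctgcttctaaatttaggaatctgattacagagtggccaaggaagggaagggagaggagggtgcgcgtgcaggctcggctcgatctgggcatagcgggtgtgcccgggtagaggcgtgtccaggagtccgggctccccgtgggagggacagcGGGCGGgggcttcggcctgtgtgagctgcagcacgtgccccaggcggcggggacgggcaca
Smarcd1, chr15:99702037-99702286, plus strand: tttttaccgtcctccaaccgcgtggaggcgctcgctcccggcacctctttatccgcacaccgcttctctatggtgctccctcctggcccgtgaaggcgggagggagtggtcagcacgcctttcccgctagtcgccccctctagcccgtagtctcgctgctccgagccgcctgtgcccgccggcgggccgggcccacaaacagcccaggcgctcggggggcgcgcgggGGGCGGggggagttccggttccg
Kat5, start 1, chr19:5610095-5610344, minus strand: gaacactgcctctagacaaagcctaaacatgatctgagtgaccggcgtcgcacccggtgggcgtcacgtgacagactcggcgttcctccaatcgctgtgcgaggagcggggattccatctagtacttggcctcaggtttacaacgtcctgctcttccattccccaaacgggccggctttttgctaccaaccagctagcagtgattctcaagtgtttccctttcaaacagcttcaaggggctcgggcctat
Kat5, start 2, chr19:5609745-5609994, minus strand: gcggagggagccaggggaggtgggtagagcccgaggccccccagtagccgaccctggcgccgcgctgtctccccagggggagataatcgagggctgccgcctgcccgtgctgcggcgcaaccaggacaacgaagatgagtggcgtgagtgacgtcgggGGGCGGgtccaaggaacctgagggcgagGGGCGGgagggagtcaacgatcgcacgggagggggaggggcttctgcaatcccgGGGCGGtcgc
Chd1l, chr3:97610191-97610440, minus strand: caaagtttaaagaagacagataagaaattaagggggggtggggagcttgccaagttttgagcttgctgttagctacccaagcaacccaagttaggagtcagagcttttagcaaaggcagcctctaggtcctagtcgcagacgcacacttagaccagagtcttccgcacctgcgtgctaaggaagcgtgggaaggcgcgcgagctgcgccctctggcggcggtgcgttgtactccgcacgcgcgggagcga

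The windows of Rcor2 and Smarcd1 lie outside the annotated gene, whereas 247 bases of the Hdac2 window, 32 of the Chd1l window and all of both Kat5 windows lie inside it, so that these genes are annotated further upstream. The 3 higher genes had 1 GC box each in these windows, the first Kat5 window and the Chd1l window had 0, and the second Kat5 window had 3. Over the family, 61 genes had 86 windows, of which 60.5% held a GC box, against 32.7% of 32851 windows of all genes. The TATAAA letters of the TATA box, on either strand, stood in 4.7% of the family's windows and 12.4% of all, and CCAAT, or ATTGG on the other strand, in 34.9% and 33.8%. The median number of CpG pairs in a window was 17 in the family and 6 over all genes. A match describes the letters in the window, and whether a factor binds there was not measured.

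The class I deacetylases held the largest difference between the lines. Hdac2, the deacetylase shared by the CoREST, NuRD and Sin3 complexes, had levels of 5.79, 6.04, 5.74 and 6.01 in N18, 3.87, 2.94, 3.00 and 3.96 in BV2 and 1.93, 1.87, 0.76 and 1.55 on the plates labelled AtT20. The 4 N18 plates lay well above the 4 BV2 plates, which in turn lay above the plates labelled AtT20. For Hdac2, N18 minus BV2 was 2.06 ± 0.13 (SE, adjusted p = 1.33e-09), a 4.16-fold difference. Hdac1, its close paralog and partner, stood at 5.12, 5.58, 5.08 and 5.27 in N18, 4.23, 3.55, 3.47 and 4.11 in BV2 and 1.83, 1.91, 0.77 and 1.36 on the plates labelled AtT20. The 3 groups of plates did not overlap, and for Hdac1, N18 minus BV2 was 0.90 ± 0.10 (SE, adjusted p = 1.39e-06). Hdac3, the enzyme of the NCoR corepressor, was higher by 0.30 ± 0.10 (SE), and Hdac8, which works outside these complexes, was lower, at -0.39 ± 0.12, a difference of -0.11 without normalization and -0.08 relative to the seminal proteins that was past the threshold under neither.

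Of the 4 class IIa deacetylases 2 were called higher in N18, as were 2 of 3 in classes IIb and IV (background 19.0%), and 0 lower (21.9%). The class IIa enzyme Hdac7 was higher in N18 by 0.83 ± 0.15 (SE, adjusted p = 0.000221), the tubulin deacetylase Hdac6 by 0.75 ± 0.12 (SE, adjusted p = 7.29e-05), and Hdac11, the sole class IV enzyme, by 0.79 ± 0.12 (SE, adjusted p = 4.43e-05). Hdac9 was called higher by 0.51, but its mean levels of 0.31 in N18 and -0.44 in BV2 were below the threshold in both lines. Hdac4, Hdac5 and Hdac10 did not pass the test, with differences of -0.28, 0.40 and -0.14, although Hdac5 was called at 0.88 and 0.91 under the other scalings.

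Rest and the CoREST complex did not move as 1 unit. Rest, the zinc finger repressor of neuronal genes, had levels of 2.22, 2.24, 1.64 and 1.87 in N18, 2.40, 1.75, 1.88 and 2.41 in BV2 and 0.64, 0.88, 0.33 and 0.72 on the plates labelled AtT20. The N18 and BV2 plates overlapped. For Rest, N18 minus BV2 was -0.61 ± 0.11 (SE, adjusted p = 0.000184) after quantile normalization, but -0.15 without normalization and -0.12 relative to the seminal proteins, where it was not called. Rcor1, the scaffold that joins Hdac1 and Hdac2 to the demethylase, was at 3.20, 3.51, 2.91 and 3.21 in N18, 2.71, 2.07, 2.03 and 2.62 in BV2 and 0.18, 0.27, 0.11 and 0.14 on the plates labelled AtT20. Its N18 levels were all above its BV2 levels. For Rcor1, N18 minus BV2 was 0.24 ± 0.10 (SE, adjusted p = 0.0805) and missed the threshold, although it was called at 0.82 and 0.85 under the other scalings.

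The related scaffold and the enzyme of the complex were higher in N18. Rcor2, a CoREST scaffold known from neural progenitors and embryonic stem cells, was at 3.56, 3.84, 3.49 and 3.50 in N18, 2.09, 1.55, 1.59 and 1.76 in BV2 and 1.65, 2.69, 1.75 and 2.37 on the plates labelled AtT20. The N18 plates stood above all other plates, and for Rcor2, N18 minus BV2 was 1.15 ± 0.17 (SE, adjusted p = 3.12e-05). Kdm1a, the demethylase of the complex that acts on H3K4, was at 3.34, 3.93, 3.27 and 3.46 in N18, 2.01, 1.43, 1.33 and 1.81 in BV2 and 3.22, 2.80, 1.15 and 1.53 on the plates labelled AtT20. The BV2 plates were all below the N18 plates, while the plates labelled AtT20 were spread from 1.15 to 3.22. For Kdm1a, N18 minus BV2 was 1.17 ± 0.16 (SE, adjusted p = 1.92e-05). Its paralog Kdm1b was above the threshold in N18 alone, on 3 of 4 plates, with a mean level of 0.90 ± 0.15 against 0.24 ± 0.09 in BV2 (SD, n = 4).

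Neuronal genes that carry Rest sites were mostly higher in N18. Of 15 measured genes of that kind, 13 were higher in N18 than in BV2 (background 19.0%) and 1 lower (21.9%), with a median difference of 1.98. Under the other scalings 13 and 14 were higher (30.7% and 38.8%) and 0 lower (7.58% and 13.1%). The largest was Chgb, a granin of secretory granules, with a mean level of 5.78 in N18 and 0.21 in BV2, and the lower one was the neurofilament gene Nefm, at 1.78 and 1.82, which was called lower after quantile normalization alone. Snap25, among the 13 higher genes, was below the threshold in both lines, at 0.04 in N18 and -0.5 in BV2. The list holds genes that mark N18 as neuron-like, and the part of Rest in their levels was not tested.

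PRC2 had its catalytic subunit higher in N18 and its partners not. Ezh2, the main methyltransferase of H3K27, was at 2.67, 3.13, 2.69 and 2.76 in N18, 1.57, 0.87, 0.90 and 1.34 in BV2 and 3.46, 2.84, 1.46 and 1.75 on the plates labelled AtT20. All N18 plates were above all BV2 plates, and the plates labelled AtT20 spread over both. For Ezh2, N18 minus BV2 was 0.91 ± 0.16 (SE, adjusted p = 0.000252). Ezh1, the methyltransferase that takes its place in cells that have left the cycle, was at 1.99, 2.14, 1.82 and 1.82 in N18, 1.37, 0.98, 1.07 and 1.21 in BV2 and 0.12, 0.85, 0.27 and 0.60 on the plates labelled AtT20. Here too the N18 plates were above the BV2 plates, but for Ezh1, N18 minus BV2 was 0.21 ± 0.15 (SE, adjusted p = 0.294). It was called at 0.75 and 0.78 under the other scalings, and 1 of its 3 probes pointed the other way.

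Eed, the subunit that reads the PRC2 mark, had levels of 2.63, 3.27, 2.64 and 2.65 in N18, 3.11, 2.28, 2.45 and 3.00 in BV2 and 2.25, 1.90, 0.80 and 1.45 on the plates labelled AtT20. The plates of the 2 lines overlapped. For Eed, N18 minus BV2 was -0.52 ± 0.13 (SE, adjusted p = 0.00348) after quantile normalization, and its sign turned to 0.06 without normalization and 0.09 relative to the seminal proteins. Suz12, the scaffold of the complex, was at 2.45, 2.88, 2.41 and 2.40 in N18, 2.97, 2.26, 2.17 and 2.86 in BV2 and 0.13, 0.14, -0.11 and 0.00 on the plates labelled AtT20. For Suz12, N18 minus BV2 was -0.62 ± 0.14 (SE, adjusted p = 0.00142), and -0.06 and -0.03 under the other scalings, where it was not called. N18 plate 2 was the highest of its line for Ezh1, Ezh2, Eed and Suz12.

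**Figure D3:**
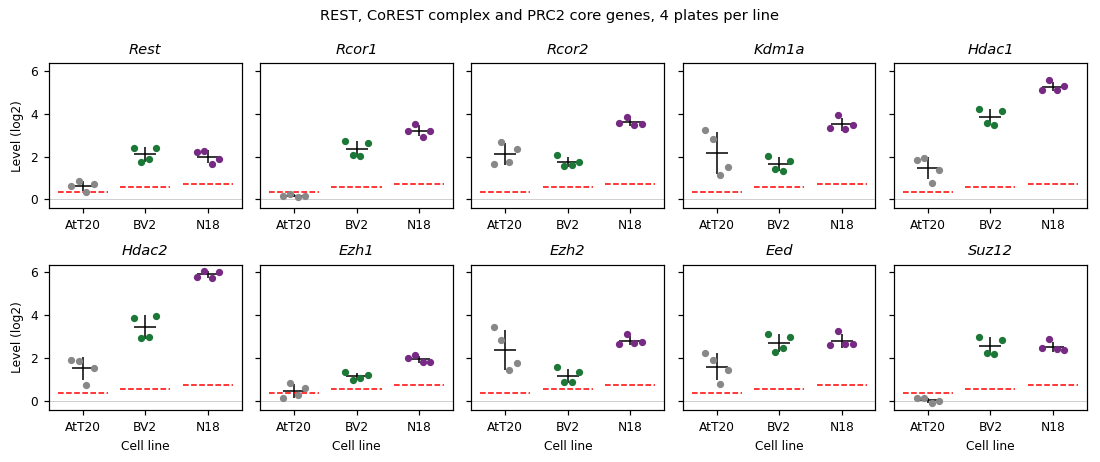
Levels (log2 intensity minus the mean of the seminal proteins) of Rest, the CoREST genes and the PRC2 genes, with 1 point per plate, the mean as a horizontal bar, the SD (n = 4) as a vertical bar and the threshold of each line as a dashed red line. Hdac2, Kdm1a, Rcor2 and Ezh2 have the N18 points above all BV2 points, and Rest, Eed and Suz12 do not.

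Most SWI/SNF subunits were higher in N18. Of 9 Smarc subunits, 6 were higher (background 19.0%) and 1 lower (21.9%), with a median difference of 0.64. Under each of the other scalings 8 were higher (background 30.7% and 38.8%) and 0 lower (7.58% and 13.1%). Smarcd1, 1 of 3 alternative subunits that link the complex to transcription factors, was at 2.57, 2.56, 2.13 and 2.40 in N18, 0.76, 0.30, 0.10 and 0.52 in BV2 and 1.40, 1.21, 0.35 and 0.70 on the plates labelled AtT20. Its mean level was below the threshold in BV2, while every N18 plate was above the threshold of that line. For Smarcd1, N18 minus BV2 was 1.25 ± 0.13 (SE, adjusted p = 6.57e-07), and its level in N18 was at least 2.1-fold above the BV2 threshold or level, whichever was higher, under every scaling. Smarcd2, the second of these alternatives, was at 3.38, 3.67, 3.36 and 3.01 in N18, 2.17, 1.83, 1.55 and 1.83 in BV2 and 3.68, 3.62, 2.12 and 2.30 on the plates labelled AtT20. No N18 level fell as low as a BV2 level, and for Smarcd2, N18 minus BV2 was 0.96 ± 0.15 (SE, adjusted p = 6.91e-05). Smarcd3, the muscle and neuron form, was at 0.64, 0.69, 0.43 and 0.41 in N18, -0.14, 0.11, -0.21 and -0.15 in BV2 and 2.98, 2.34, 1.25 and 1.26 on the plates labelled AtT20. It was above the threshold on the plates labelled AtT20 alone. For Smarcd3, N18 minus BV2 was 0.35 ± 0.17 (SE, adjusted p = 0.117), with 0.61 and 0.64 under the other scalings, where it was called. Its mean levels in both lines were below the threshold.

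The scaffold and DNA-binding subunits followed. Smarce1, which carries an HMG box, was at 4.07, 4.36, 3.74 and 4.00 in N18, 2.60, 1.88, 2.06 and 2.44 in BV2 and 0.12, 0.47, 0.22 and 0.44 on the plates labelled AtT20. For Smarce1, N18 minus BV2 was 1.20 ± 0.13 (SE, adjusted p = 1.69e-06). Smarcc2, a core scaffold that gains weight in neurons, was at 4.48, 4.76, 4.31 and 4.48 in N18, 3.42, 2.70, 2.83 and 3.22 in BV2 and 0.29, 0.19, -0.08 and 0.22 on the plates labelled AtT20. For Smarcc2, N18 minus BV2 was 0.89 ± 0.16 (SE, adjusted p = 0.000261). In both genes N18 was highest on every plate, and the mean on the plates labelled AtT20 was below the threshold. Smarcc1, the paralog of Smarcc2, had a mean level of 0.70 ± 0.21 in BV2 and 1.83 ± 0.20 in N18 (SD, n = 4). Its difference was 0.55 ± 0.13 (SE) after quantile normalization and 1.13 relative to the seminal proteins.

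Of the ATPases of the complex, Smarca2 was higher in N18 by 0.64 ± 0.12 (SE, adjusted p = 0.000466). Smarca4, the alternative ATPase, was lower by quantile normalization at -0.29 ± 0.11 (SE, adjusted p = 0.0403), but its differences of 0.35 and 0.38 under the other scalings had the opposite sign and were not called. Smarcb1, the core subunit that acts as a tumor suppressor, was at 2.79, 3.36, 2.76 and 2.69 in N18, 2.25, 1.80, 1.50 and 2.11 in BV2 and 4.63, 4.46, 3.23 and 3.48 on the plates labelled AtT20. The plates labelled AtT20 were highest and 1 of them lay within the N18 range. For Smarcb1, N18 minus BV2 was 0.30 ± 0.15 (SE, adjusted p = 0.122) and missed the threshold, although it was called at 0.95 and 0.98 under the other scalings.

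**Figure D4:**
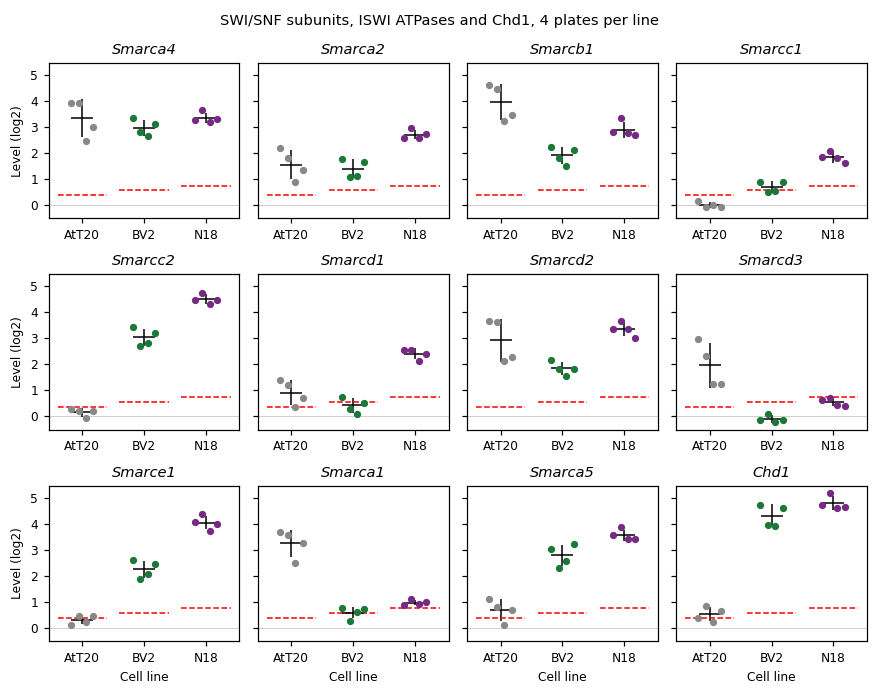
Levels of 9 SWI/SNF subunits, the ISWI ATPases Smarca1 and Smarca5, and Chd1, with 1 point per plate, the mean and SD (n = 4) in black and the threshold of each line in dashed red. Smarcd1, Smarce1 and Smarcc2 have all N18 points above all BV2 points, and Smarca1 and Smarcd3 are highest on the plates labelled AtT20.

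Of the 2 ISWI ATPases and 5 CHD remodelers, 1 was called higher in N18 (background 19.0%) and 1 lower (21.9%) after quantile normalization. Smarca1, an ISWI ATPase of the nervous system and gonads, was at 0.89, 1.09, 0.90 and 1.00 in N18, 0.74, 0.27, 0.62 and 0.71 in BV2 and 3.67, 3.55, 2.48 and 3.27 on the plates labelled AtT20. For Smarca1, N18 minus BV2 was 0.04 ± 0.11 (SE, adjusted p = 0.788), with probe differences from -0.88 to 1.25. Its mean level in BV2 was 0.58, just above the threshold, and fell under the threshold without plate 1 (0.53) or plate 4 (0.54). Smarca5, the more widespread ISWI ATPase, differed by 0.13 ± 0.17 (SE) and was called at 0.75 and 0.78 under the other scalings. Chd1, which reads methylated H3K4, was at 4.71, 5.19, 4.61 and 4.65 in N18, 4.74, 3.95, 3.90 and 4.62 in BV2 and 0.36, 0.85, 0.23 and 0.64 on the plates labelled AtT20. BV2 and N18 overlapped, and for Chd1, N18 minus BV2 was -0.13 ± 0.11 (SE, adjusted p = 0.38), with 0.46 and 0.49 under the other scalings, again not called. Chd4, the ATPase of NuRD, differed by 0.25 ± 0.13 (SE) and was called at 0.80 and 0.83 under the other scalings.

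Chd1l, a remodeler recruited to DNA damage by poly(ADP-ribose), was lower in N18. Its levels were 1.37, 1.63, 1.33 and 1.38 in N18, 2.30, 1.75, 1.53 and 2.18 in BV2 and 0.02, -0.17, -0.05 and 0.01 on the plates labelled AtT20. N18 plate 2 lay within the BV2 range. For Chd1l, N18 minus BV2 was -0.85 ± 0.11 (SE, adjusted p = 1.15e-05), and it was called at -0.55 and -0.52 under the other scalings. Chd6 was above the threshold in N18 alone, with a mean level of 1.57 ± 0.19 against 0.52 ± 0.22 in BV2 (SD, n = 4). Its difference was 0.52 ± 0.11 (SE, adjusted p = 0.00111) after quantile normalization and 1.05 relative to the seminal proteins.

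The lysine demethylases were divided. Kdm2a, which binds unmethylated CpG and acts on H3K36, was at 3.52, 3.73, 3.41 and 3.68 in N18, 4.25, 3.82, 3.87 and 4.35 in BV2 and 0.21, 0.04, -0.06 and 0.08 on the plates labelled AtT20. BV2 was highest and did not overlap N18, whereas the plates labelled AtT20 were all below the threshold. For Kdm2a, N18 minus BV2 was -1.19 ± 0.14 (SE, adjusted p = 2.19e-06), and -0.52 and -0.49 under the other scalings, where it was not called. Kdm6a, the X-linked demethylase of H3K27, was at 1.13, 1.46, 1.23 and 1.28 in N18, 2.01, 1.69, 1.57 and 1.95 in BV2 and 3.33, 2.79, 1.65 and 2.12 on the plates labelled AtT20. BV2 lay above N18 on every plate. For Kdm6a, N18 minus BV2 was -0.83 ± 0.12 (SE, adjusted p = 3.34e-05); it was called at -0.56 without normalization and not called at -0.53 relative to the seminal proteins. Kdm5c, an X-linked demethylase of H3K4, was at 2.69, 2.75, 2.35 and 2.49 in N18, 2.97, 2.63, 2.22 and 2.76 in BV2 and 4.08, 4.08, 2.64 and 2.88 on the plates labelled AtT20. The lines overlapped, and for Kdm5c, N18 minus BV2 was -0.65 ± 0.14 (SE, adjusted p = 0.00114), against -0.10 and -0.07 under the other scalings.

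Other demethylases were higher in N18. Kdm5b, a relative of Kdm5c with the same substrate, was higher by 0.58 ± 0.14 (SE, adjusted p = 0.00418), and Kdm3a, which acts on H3K9, by 0.65 ± 0.12 (SE, adjusted p = 0.000268). The 2 targets of Kdm3a read 2.81 and 2.50 in N18 and 1.38 and 1.23 in BV2 (mean levels), but 1.97 and 0.06 on the plates labelled AtT20. Kdm6b, the inducible relative of Kdm6a, had mean levels of 0.44 in N18 and 0.58 in BV2, near the thresholds, and its difference of -0.31 ± 0.13 (SE) did not pass the test. The differences of Kdm4a, Kdm4c, Kdm2b and Kdm7a, from -0.30 to 0.28, were not called either. Under the other scalings Kdm2b was called at 0.90 and 0.93 and Kdm7a at 0.81 and 0.84.

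Kat5 and Kat2a marked opposite ends of the acetyltransferases. Kat5, the catalytic subunit of the NuA4/TIP60 complex, was at 1.92, 2.09, 1.69 and 1.64 in N18, 2.94, 2.41, 2.46 and 3.08 in BV2 and 2.12, 1.82, 0.76 and 0.93 on the plates labelled AtT20. BV2 was above N18 on all plates, and the plates labelled AtT20 overlapped N18. For Kat5, N18 minus BV2 was -1.31 ± 0.15 (SE, adjusted p = 1.68e-06), a 2.48-fold lower signal in N18, and -0.91 and -0.88 under the other scalings, where it was called too. Kat2a, the acetyltransferase of the SAGA complex, was at 4.35, 4.58, 4.21 and 4.13 in N18, 3.26, 2.81, 2.46 and 3.00 in BV2 and 2.99, 2.81, 1.77 and 1.78 on the plates labelled AtT20. N18 was highest on every plate, and for Kat2a, N18 minus BV2 was 0.88 ± 0.13 (SE, adjusted p = 3.5e-05). Its 2 targets gave similar mean levels, 4.28 and 4.35 in N18 and 2.81 and 2.96 in BV2. Kat6b, Kat7 and Kat8, of the MYST family to which Kat5 also belongs, were higher in N18 by 0.70 ± 0.15, 0.46 ± 0.12 and 0.36 ± 0.13 (SE), and Kat14 and Kat2b were not called, at 0.22 and -0.04, although Kat14 was called at 0.80 and 0.83 under the other scalings.

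No sirtuin was higher in N18 after quantile normalization (background 19.0%), and 4 of 6 were lower (21.9%). Without normalization 0 were higher (30.7%) and 1 lower (7.58%), and relative to the seminal proteins 1 was higher (38.8%) and 1 lower (13.1%). Sirt5, the mitochondrial desuccinylase, was at 0.68, 0.87, 0.49 and 0.57 in N18, 1.48, 1.10, 1.02 and 1.27 in BV2 and 0.15, 0.50, -0.07 and 0.42 on the plates labelled AtT20. It was above the threshold in BV2 alone, and no N18 level reached a BV2 level. For Sirt5, N18 minus BV2 was -0.71 ± 0.12 (SE, adjusted p = 0.000213), and it was called at -0.59 and -0.56 under the other scalings, with BV2 at least 1.3-fold above the N18 threshold or level. Sirt7, the nucleolar sirtuin, was at 2.77, 2.89, 2.52 and 2.72 in N18, 2.87, 2.83, 2.69 and 3.06 in BV2 and 0.45, 1.22, 0.38 and 0.75 on the plates labelled AtT20. BV2 and N18 overlapped. For Sirt7, N18 minus BV2 was -0.76 ± 0.14 (SE, adjusted p = 0.000325), against -0.17 and -0.14 under the other scalings, where it was not called. Sirt1, the nuclear sirtuin that deacetylates histones and transcription factors, was at 0.86, 1.11, 0.76 and 0.79 in N18, 1.56, 0.89, 0.72 and 1.55 in BV2 and 0.30, 0.22, 0.15 and 0.09 on the plates labelled AtT20. The BV2 plates themselves ranged from 0.72 to 1.56. For Sirt1, N18 minus BV2 was -0.52 ± 0.14 (SE, adjusted p = 0.00584), against -0.33 and -0.30, not called. Sirt6 was called lower at -0.33 but was at 0.02 and 0.05 under the other scalings, and Sirt2 and Sirt3 were not called, at -0.15 and -0.02.

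In the DNA methylation group the maintenance enzyme was the higher one in N18. Dnmt1, which copies methylation after replication, was at 4.02, 4.05, 3.56 and 3.95 in N18, 3.22, 2.58, 2.40 and 2.88 in BV2 and 0.53, 0.90, 0.21 and 0.60 on the plates labelled AtT20. The N18 plates were above the BV2 plates, and for Dnmt1, N18 minus BV2 was 0.49 ± 0.13 (SE, adjusted p = 0.0055), with 1.10 and 1.13 under the other scalings. Dnmt3a, a de novo methyltransferase, was at 3.20, 3.39, 3.14 and 3.44 in N18, 2.74, 2.38, 2.26 and 3.06 in BV2 and 0.45, 1.00, 0.35 and 0.87 on the plates labelled AtT20. For Dnmt3a, N18 minus BV2 was 0.05 ± 0.14 (SE, adjusted p = 0.799), and its N18 levels were nonetheless above its BV2 levels on the scale of the seminal proteins, where the difference was 0.69 and was called. Dnmt3b, the other de novo enzyme, was at 0.63, 0.51, 0.60 and 0.43 in N18, 0.46, 0.20, 0.08 and 0.29 in BV2 and 0.27, 0.29, 0.03 and 0.40 on the plates labelled AtT20. Its mean level was below the threshold in the 3 lines. For Dnmt3b, N18 minus BV2 was 0.05 ± 0.10 (SE, adjusted p = 0.708).

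Dnmt3l, the cofactor that lacks catalytic activity, was at 1.01, 0.44, 0.88 and 0.92 in N18, 0.99, 1.04, 1.10 and 1.04 in BV2 and 0.05, 0.24, -0.05 and 0.36 on the plates labelled AtT20. N18 plate 2, at 0.44, was well below the other plates of its line. For Dnmt3l, N18 minus BV2 was -0.48 ± 0.16 (SE, adjusted p = 0.0234), and 1 of its 3 probes pointed the other way. The call was lost without N18 plate 2 (-0.39, adjusted p = 0.0887), BV2 plate 2 (-0.41, adjusted p = 0.0755) or BV2 plate 3 (-0.44, adjusted p = 0.0647). Tet2, the one TET dioxygenase measured, was at 1.51, 2.07, 1.53 and 1.64 in N18, 1.44, 1.08, 0.98 and 1.37 in BV2 and -0.10, -0.19, -0.27 and -0.06 on the plates labelled AtT20. Both lines were above the threshold, and for Tet2, N18 minus BV2 was -0.02 ± 0.12 (SE, adjusted p = 0.892), with 0.44 and 0.47 under the other scalings, of which the second was called.

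The comparisons with the plates labelled AtT20 share those plates, as well as the BV2 or N18 plates, and are given as values side by side. After quantile normalization the median SD of the 70 genes over plates was 0.10 in N18, 0.12 in BV2 and 0.23 on the plates labelled AtT20, whereas the fit gives the lines 1 common spread per gene, so that the errors of these comparisons are smaller than the spread of the plates labelled AtT20 would give. In BV2, 22 genes were called higher than on the plates labelled AtT20 (background 26.6%) and 34 lower (47.0%). Without normalization 14 were higher (11.7%) and 46 lower (74.7%), and relative to the seminal proteins 37 were higher (50.4%) and 14 lower (17.6%). In N18, 23 were called higher (27.8%) and 29 lower (48.6%). Without normalization 18 were higher (19.9%) and 30 lower (63.1%), and relative to the seminal proteins 53 were higher (60.7%) and 7 lower (16.3%). The median of all genes and targets itself ran from -1.08 to 0.28 in BV2 and from -0.85 to 0.54 in N18 over these scalings, so each split is read beside its own background.

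Some genes kept their direction and their call under all 3 scalings. In BV2 these were 14 of the 22 higher and 14 of the 34 lower genes. Over all genes and targets they were 2938 of 6687 higher and 4313 of 11808 lower. In N18 they were 17 of the 23 higher and 7 of the 29 lower genes. Over all genes and targets they were 4702 of 6981 higher and 4023 of 12211 lower. Kdm2a was higher in BV2 by 3.48 ± 0.14 (SE, adjusted p = 2.15e-12) and in N18 by 2.28 ± 0.14 (SE, adjusted p = 2.71e-10). Its signal was at least 5.0-fold and 2.8-fold above the threshold or level on the plates labelled AtT20. Smarcc2 was higher in BV2 by 2.16 ± 0.16 (SE, adjusted p = 3.93e-09) and in N18 by 3.05 ± 0.16 (SE, adjusted p = 5.73e-11), at least 2.4-fold and 5.4-fold. Chd1 was higher by 2.78 ± 0.11 (SE, adjusted p = 3.51e-12) in BV2 and 2.65 ± 0.11 (SE, adjusted p = 6.11e-12) in N18. For Hdac2 the same differences were 0.52 ± 0.13 (SE, adjusted p = 0.00177) in BV2 and 2.57 ± 0.13 (SE, adjusted p = 3.27e-11) in N18, and 1.91 and 4.37 relative to the seminal proteins. Suz12, at or below 0.14 on each plate labelled AtT20, was at least 1.7-fold higher in BV2 and 1.3-fold higher in N18.

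Other genes were highest on the plates labelled AtT20. Smarca1 was lower in BV2, at -3.50 ± 0.11 (SE, adjusted p = 1.46e-13), and in N18, at -3.46 ± 0.11 (SE, adjusted p = 1.71e-13). Smarcb1 was lower in BV2, at -3.06 ± 0.15 (SE, adjusted p = 2.99e-11), and in N18, at -2.76 ± 0.15 (SE, adjusted p = 9.57e-11), with 1 plate labelled AtT20 inside the N18 range. Hdac8, read at 1.13, 1.24, 0.96 and 0.97 in N18, 1.38, 0.87, 1.09 and 1.30 in BV2 and 3.77, 3.24, 2.14 and 2.45 on the plates labelled AtT20, was apart from both lines. For Hdac8, BV2 minus AtT20 was -2.72 ± 0.12 (SE, adjusted p = 6.18e-12) and N18 minus AtT20 was -3.11 ± 0.12 (SE, adjusted p = 1.45e-12). Smarcd3 was at least 2.6-fold higher on the plates labelled AtT20 than in BV2 and 2.3-fold higher than in N18, with all 3 probes above the threshold there. These 4 genes kept their sign and their call under the 3 scalings. The differences were smaller relative to the seminal proteins, at -2.66 in BV2 and -2.27 in N18 for Smarca1, -2.03 and -1.05 for Smarcb1, -1.74 and -1.83 for Hdac8, and -2.06 and -1.42 for Smarcd3. The levels of Smarca1 and Hdac8 each rested on 2 of 3 probes above the threshold on these plates.

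**Figure D5:**
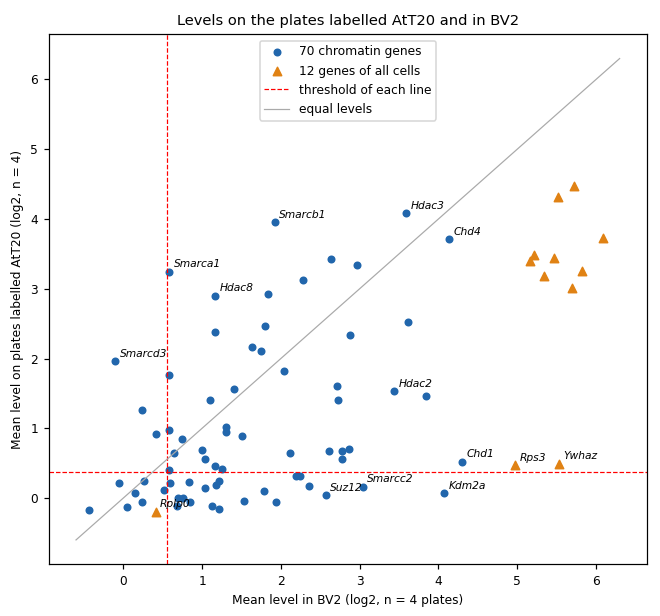
Mean level on the plates labelled AtT20 (y axis) against mean level in BV2 (x axis), both as log2 intensity minus the seminal proteins, n = 4 plates each, for the 70 chromatin genes (circles) and 12 genes that all cells use (triangles); dashed lines are the thresholds and the gray line marks equal levels. All triangles lie below the line of equal levels, and Smarca1 (3.24 against 0.58), Smarcb1 (3.95 against 1.92), Hdac8 and Smarcd3 lie above it.

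Partners of these genes that the symbol rule does not take were counted from lists of the same complexes in N18 against BV2. Of 23 genes of PRC1 and of PRC2 accessory subunits, 14 were higher in N18 (background 19.0%) and 3 lower (21.9%), with a median difference of 0.51. The counts were 18 and 2 under each of the other scalings, where 30.7% and 38.8% of all were higher and 7.58% and 13.1% lower. The chromobox gene Cbx7, a PRC1 reader of the PRC2 mark, had a mean level of 4.28 in N18 and 1.80 in BV2. Its difference was 1.89 ± 0.12 (SE) after quantile normalization and 2.47 relative to the seminal proteins. Pcgf6, of a variant PRC1, had the lowest difference after quantile normalization, at -1.18 ± 0.13. Of 16 SWI/SNF subunits without a Smarc symbol, 6 were higher (background 19.0%) and 3 lower (21.9%), with a median of 0.29. Under each of the other scalings 12 were higher (30.7% and 38.8%) and 1 lower (7.58% and 13.1%). Actl6b, the actin-like subunit of the neuronal complex, was higher by 0.91 ± 0.12, as was the bromodomain subunit Brd9 by 0.91 ± 0.14, while Brd7, of the PBAF form, was lower at -0.87 ± 0.13, a call not kept at -0.25 and -0.22 under the other scalings.

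In the other lists the counts are to be read beside the background of 19.0% higher and 21.9% lower. Of 16 NuRD and Sin3 genes, 4 were higher and 4 lower, with a median of -0.09. Mbd3 of NuRD had the largest negative difference, -1.33 ± 0.19 (SE). Of 19 histone lysine methyltransferases and partners, 3 were higher and 5 lower, with Setd7 at 0.54 and Kmt5b, which methylates H4K20, at -1.27. Of 10 genes of the p300 family and acetyl readers, 1 was higher and 3 lower, with Brd3 at 0.43 and Ncoa1 at -1.22. Of 10 DNA methylation readers and partners, 3 were higher and 2 lower, with Gadd45b at -1.06. Of 16 genes of ISWI, INO80 and histone chaperone complexes, 6 were higher and 4 lower, with Baz2a at 1.40 and Daxx at -1.17. Without normalization the splits of these 5 lists, higher and lower, were 6 and 1, 9 and 1, 5 and 1, 5 and 1, and 8 and 1, and relative to the seminal proteins 7 and 1, 10 and 1, 4 and 1, 5 and 1, and 7 and 1. The background was 30.7% higher and 7.58% lower without normalization, and 38.8% and 13.1% relative to the seminal proteins. Of 13 cell division genes, 7 were higher in N18 and 3 lower, with a median of 0.25, and 8 were higher and 0 lower under each of the other scalings. The part of cell division in the levels of Dnmt1 and Ezh2 was not tested.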

How the data were processed

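RNA of 12 plates was measured on NimbleGen arrays with 60-base probes, 1 Cy3 array per plate. As deposited by the authors, each array has the log2 intensity of 72000 probes, with no background correction or normalization between arrays stated in the sources used here. All 12 arrays carry a sample of the series, and columns of other samples number 0. Probes were grouped into 25631 targets, of which 69.4% (17780) were matched to a symbol through RefSeq transcript names, and the probes of each target were averaged before taking log2. Groups follow the labels (4 plates per line), and this number of arrays limits the precision.

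The 3 pairs of lines were tested two-sided after quantile normalization with lmFit and trended eBayes of limma 3.58.1 (R 4.3.3), with Benjamini-Hochberg adjustment over 25128 genes and targets. The methods of the study give no test between lines. The fit was tested on simulated data. Where the lines shared 1 spread it recovered most of the larger changes put in, and where each line kept its own it called too many genes in the pairs with AtT20, so adjusted p-values of those pairs may be too small.

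The genes, their roles and the related lists were chosen with earlier results of these data known. Values on every plate are given for the PRC2, Rest, Rcor, Dnmt and Tet genes and, of the other members, for the 8 largest called differences in each direction in N18 against BV2 among genes above the threshold in at least 1 of the lines, and for the 3 largest in each direction in each pair with the plates labelled AtT20 that kept their direction under the 3 scalings, 33 genes in all. Fold limits for genes below the threshold in 1 line use the higher of the threshold and the level there, and the smallest of the 3 scalings.

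Alternatives were other scalings, averages of probes, a normexp correction (offset 50), a filter on low values, the 8 arrays of a pair, the plate number as a block, a difference of at least 1, 3 SD, olfactory receptor controls and leaving out each plate. Array weights by line were added after seeing the data.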

Additional observations from a re-analysis of the deposited data

Results flagged for a closer look

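In N18, plate 2 lay far from the other plates of its line for 4 of the genes given plate by plate. The level of Eed was 3.27 on that plate and 2.63 to 2.65 on the others. Suz12 was at 2.88 against 2.40 to 2.45, Chd1l at 1.63 against 1.33 to 1.38, and Smarcb1 at 3.36 against 2.69 to 2.79. For each, the gap to the nearest plate exceeded Dixon's 95% critical value for 4 samples, which chance exceeds in about 1 in 20 groups, and 99 groups of 4 plates were examined. That plate was the highest of its line in all 4 genes.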

How the results depend on the processing

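The counts above the threshold changed by more than 1.5 times under 1 alternative, 36 in BV2 with olfactory receptor genes as controls. Leaving out 1 plate gave 40 to 43 genes on the plates labelled AtT20, 55 to 62 in BV2 and 60 to 61 in N18. Without normalization, 38 genes were higher and 4 lower in N18 than in BV2, and 14 were higher in BV2 than on the plates labelled AtT20. Relative to the seminal proteins, 43 were higher and 5 lower in N18 than in BV2, 37 higher and 14 lower in BV2 than on the plates labelled AtT20, and 53 higher and 7 lower in N18 than on those. With a difference of at least 1 required, these counts were 5 and 2, 12 and 20, and 13 and 16. Over all 25128 genes and targets they were 1378 and 1093, 3153 and 3949, and 3312 and 4571. With the median of the probes, 22 genes were lower in BV2 than on the plates labelled AtT20, as were 8995 of all 25128. Leaving out 1 plate gave 23 to 29 higher and 13 to 18 lower (N18 against BV2), 21 to 24 and 33 to 35 (BV2 against AtT20), and 22 to 24 and 27 to 32 (N18 against AtT20). Over all 25128 genes and targets the ranges were 4285 to 5325 and 4498 to 6625, 6357 to 6912 and 11150 to 12118, and 6661 to 7202 and 11641 to 12460. Array weights by line, added after seeing the data, gave 36 and 20, 21 and 33, and 22 and 28. Of all 25128 genes and targets they called 6503 and 8853, 6134 and 11124, and 6539 and 11743. They also called Ezh1 (0.21, adjusted p = 0.0287), Rcor1 (0.24, adjusted p = 0.0181), Smarcd3 (0.35, adjusted p = 0.00284) and Smarcb1 (0.30, adjusted p = 0.0202) higher in N18 than in BV2.

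The plate numbers share only a number: deviations of same-numbered plates correlated at -0.11 to 0.32, and not every plate correlated best with its own number. With the plate number as a replicate block the counts were 25 and 16, 21 and 34, and 23 and 29. Over all 25128 genes and targets they were 4779 and 5329, 6654 and 11773, and 6955 and 12172. None of the 33 genes given plate by plate changed its call in N18 against BV2.

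Signs turned for a few genes with small values. In N18 against BV2, Eed was 0.06 without normalization and 0.09 relative to the seminal proteins, Tet2 was 0.44 and 0.47 and, with the mean of the log2 probes, 0.01, Chd1 was 0.46 and 0.49, and Smarca1 was -0.09 with the median of the probes. Leaving out 1 plate gave -0.02 to 0.13 for Dnmt3a, -0.08 to 0.02 for Tet2 and -0.02 to 0.07 for Smarca1. The level of Dnmt3a on the plates labelled AtT20 was -0.02 with the median of the probes. Without AtT20 plate 1, which enters through the shared spread, Ezh1 (0.21, adjusted p = 0.0355) and Smarcd3 (0.35, adjusted p = 0.0295) were called, as was Smarcd3 without plate 4 (adjusted p = 0.0367). Ezh1 fell under the threshold without AtT20 plate 2 (0.33), Smarce1 rose above it without plate 1 (0.38), and Smarcd1 in BV2 stayed under it except without the third plate (0.53, against a threshold set by the remaining plates). The cause was not tested.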
